A study of Homo sapiens with 24 samples.

Results

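The genes described here are the better-expressed ZNF genes of HEK293T cells, a human embryonic kidney line. They were selected on their values in KO cells: a symbol made of ZNF and a number, with at most 1 letter after it, and a mean of at least 2 TPM over the 2 KO libraries of the second table. TPM is an estimate of transcript abundance corrected for transcript length, so levels can be set side by side between genes. The rule kept 286 of the 554 ZNF genes listed, out of 58884 genes in all. KO cells have both alleles of SETD2 disrupted, SETD2 being the methyltransferase that places H3K36me3. Of the 2 tables, the first has 2 libraries each of WT and KO cells, all labelled untreated. The second has 2 of KO cells labelled untreated, 2 of KO cells transfected with full-length SETD2 (SETD2 FL) and 2 of KO cells transfected with SETD2 C, the fragment of residues 1404 to 2564. Both constructs were expressed from the CMV promoter, and cells were taken 72 h after transfection. Against KO, transfection and SETD2 expression therefore cannot be told apart. SETD2 C against SETD2 FL, where both groups were transfected, and WT against KO in the first table were tested, as neither takes a group mean from the libraries that chose the genes. Those KO libraries do enter the estimate of spread in the second table, and counts with them left out are given below. The rule also leaves ZNF genes that were low in KO cells out of both comparisons, so neither is free of the selection. SETD2 C or SETD2 FL against KO is given as a description without a test.

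A few facts on the libraries bear on these values. The SETD2 transcript was at 12.6 and 14.8 TPM in the WT libraries and at 16.2 and 16.3 TPM in the libraries labelled KO of the first table, so it does not check that label. In the second table it was at 11.99 and 12.15 TPM in KO, 439 and 422 in SETD2 FL cells and 1329 and 1264 TPM in SETD2 C cells. These are gene-level values and not a measure of each construct on its own length. Of 6 genes that mark HEK293T cells, KRT8, KRT18, VIM, NEFM and NEFL were expressed in every library, and PAX2 was low. KRT8, NEFM and NEFL were over 2-fold higher in SETD2 C cells than in SETD2 FL cells. Of 8 markers of other cell types, 7 were near 0, and COL1A1 lay at 6.43 to 12.1 TPM. More genes had a TPM above 0 with SETD2 C (27104 and 26139) than with SETD2 FL (25440 and 25134), and its part in the results was not tested. The depth of the libraries is unknown. The labels do not state whether replicates were separate cultures, so p-values measure only the spread between the samples. In such bulk RNA, fewer cells of a type and less RNA per cell cannot be told apart.

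ZNF genes encode proteins with C2H2 zinc fingers, loops folded around a zinc ion that mostly read DNA, arranged in tandem and joined by a short linker. The largest group also carries a KRAB box near the N terminus. This box binds TRIM28 (KAP1), which brings the H3K9 methyltransferase SETDB1 and the HP1 proteins to the bound site, often a transposable element. KRAB genes arose by tandem duplication and lie in clusters, above all on chromosome 19, and the bodies of many of them carry H3K36me3 together with H3K9me3. ZNF genes without KRAB are a mixed group with roles in transcription, splicing and ribosome production. Of the 286 genes, 92 lie on chromosome 19, 26 on chromosome 7 and 24 on chromosome 16. GENCODE 44 lists 279 as protein-coding, and all of these were tested in both tables. The reading frame of the reference transcript held a KRAB signature in 130 of the 279 (46.6%) and none in 149. It held a median of 9 fingers (interquartile range 5 to 13), up to 36, and 8 genes had no match to the finger pattern.

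The family resemblance is visible in the DNA. The last finger followed by the conserved linker is printed for the 6 genes higher by 2-fold or more in a tested comparison. Capitals mark the 18 bases that encode the linker TGEKP and the Y after it. The sequences were read 5′ to 3′ from the plus strand coding exon of the GENCODE 44 transcript on GRCh38.
ZNF736, chr7:64348974-64349054: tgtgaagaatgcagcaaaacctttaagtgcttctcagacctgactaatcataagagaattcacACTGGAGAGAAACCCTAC
ZNF738, chr19:21383582-21383662: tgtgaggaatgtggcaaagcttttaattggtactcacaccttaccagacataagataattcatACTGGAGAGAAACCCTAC
ZNF880, chr19:52385228-52385308: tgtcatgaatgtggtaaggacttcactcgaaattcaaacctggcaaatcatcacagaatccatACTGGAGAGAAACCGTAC
ZNF333, chr19:14718933-14719013: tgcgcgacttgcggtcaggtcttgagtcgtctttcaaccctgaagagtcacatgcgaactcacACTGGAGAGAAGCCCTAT
ZNF714, chr19:21117943-21118023: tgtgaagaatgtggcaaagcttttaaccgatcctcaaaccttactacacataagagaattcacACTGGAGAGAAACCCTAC
ZNF749, chr19:57445072-57445152: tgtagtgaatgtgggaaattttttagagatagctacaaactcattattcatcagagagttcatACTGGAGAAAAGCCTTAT
Over the 81 bases, pairs of these genes were identical at 44 (ZNF333 and ZNF749) to 71 bases (ZNF738 and ZNF714). A linker of this kind was found in 186 of the 279 genes (66.7%). Because the genes resemble each other, reads can fit more than one of them, and RSEM divides such reads by estimate. Of all 75-base stretches of the reference transcript, ZNF738 shared 25.4% with transcripts of another gene, ZNF37A 9.88%, ZNF736 8.12% and ZNF714 3.8%, while ZNF880, ZNF333 and ZNF749 shared none. Over 20% was shared by 20 of the 286 genes, and their values are uncertain to that extent.

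In KO cells most of the genes were expressed at a low level. The median KO mean was 6.32 TPM (interquartile range 3.69 to 12.3), with 107 genes at 2 to 5 TPM, 143 at 5 to 20 and 36 at 20 or more. The highest was ZNF207, a spindle and splicing factor also called BuGZ, at 104 and 109 TPM in KO, 109 and 115 in SETD2 FL cells and 132 and 132 TPM in SETD2 C cells. ZNF581 followed at 82.7 and 85.1, 67.6 and 73.7, and 68.5 and 67.6 TPM in the same order. ZNF768 was at 87.3 and 79.8, 81.2 and 91.8, and 93.7 and 89.6 TPM, and ZNF664 at 77.4 and 74.6, 70.9 and 81.4, and 87.0 and 91.2 TPM. The KO values of ZNF581, ZNF768 and ZNF664 lay close together, and none of these 4 genes carries KRAB. Between SETD2 C and SETD2 FL, tested as described next, ZNF581 alone of the 4 passed at the adjusted p (-0.18, adjusted p = 0.032), though its libraries overlapped, and its call was lost with any 1 of the 4 libraries of these groups left out. At the other end, ZNF70 was just inside the threshold (2.02 and 1.98 TPM in KO, 2.19 and 1.94 with SETD2 FL, 2.21 and 2.24 with SETD2 C). ZNF79 was just outside it (1.94 and 2.02, 4.92 and 4.69, and 2.65 and 2.02 TPM). The KRAB genes were lower, with a median KO mean of 5.08 TPM against 8.61 TPM for those without KRAB, and 1 KRAB gene, ZNF286A, reached 20 TPM.

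SETD2 C was compared with SETD2 FL to ask how the level of each ZNF gene differed between the fragment and the whole protein. The authors report markedly more protein of SETD2 C than of SETD2 FL, so truncation and amount cannot be told apart here. Scaled TPM was tested with limma, and adjusted p-values are by Benjamini-Hochberg over all 15929 genes tested. With an adjusted p up to 0.05 and a difference of 2-fold or more, 4 of the 279 genes were higher with SETD2 C (all genes tested: 3.36%) and 0 were lower (all genes tested: 0.421%). The lowest log2 difference was -0.77. At an unadjusted p under 0.05 (limma), 47 of the 279 genes were lower, beside 3422 of all 15929. At the adjusted p alone, 62 were higher, 22.2% of the 279 beside 21.4% of all genes tested, and 33 were lower, 11.8% beside 16.8%. The share that was higher thus lay near that of all genes. Differences were mostly small: 234 of the 279 had a log2 difference under 0.5 in size. The median was 0.072 (interquartile range -0.13 to 0.28), beside 0.042 over all genes tested. The balance between directions depended on the scaling: 48 were higher and 46 lower after quantile normalization (17.2% and 16.5%, beside 16.9% and 19.2% of all genes), with a median of -0.014. Without scaling, which moves the median of all genes to 0.158, 95 were higher and 17 lower (34.1% and 6.09%, beside 32.6% and 9.47%), with a median of 0.189. Under both settings the shares of the members moved with those of all genes. In a fit of the SETD2 C and SETD2 FL libraries alone, 60 were higher and 31 lower. The number lower was 21 without SETD2 FL replicate 3, 13 without SETD2 FL replicate 4 and 10 without SETD2 C replicate 2, while 42 to 60 were higher with any 1 library left out.

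The 4 genes called higher all carry KRAB and lay at 2.30 to 6.75 TPM in the KO libraries. ZNF736, on chromosome 7 (64307459 to 64356634, plus strand, GRCh38), was at 3.19 and 2.79 TPM in KO, 3.25 and 2.99 in SETD2 FL cells and 9.98 and 11.96 TPM in SETD2 C cells (log2 difference of SETD2 C and SETD2 FL 1.54, SE 0.123, adjusted p = 0.000155). ZNF738, on chromosome 19 (21358930 to 21388582, plus strand), was at 3.22 and 3.77 TPM in KO, 3.75 and 2.89 in SETD2 FL cells and 8.98 and 11.3 TPM in SETD2 C cells (1.36, SE 0.162, adjusted p = 0.000786). In both genes the SETD2 C libraries stood well above the other 4, which overlapped each other. ZNF880, on chromosome 19 (52369917 to 52385795, plus strand), was at 2.80 and 2.30 TPM in KO, 2.84 and 1.58 in SETD2 FL cells and 6.89 and 5.88 TPM in SETD2 C cells (1.27, SE 0.226, adjusted p = 0.00404). ZNF333, on chromosome 19 (14689801 to 14733746, plus strand), was at 6.16 and 6.75 TPM in KO, 5.32 and 4.5 in SETD2 FL cells and 12.6 and 11.7 TPM in SETD2 C cells (1.11, SE 0.115, adjusted p = 0.000474). ZNF333 was also the one of these 4 in which both SETD2 FL libraries lay below both KO libraries. Without SETD2 FL replicate 4, 2 genes were called in place of 4.

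**Figure D1:**
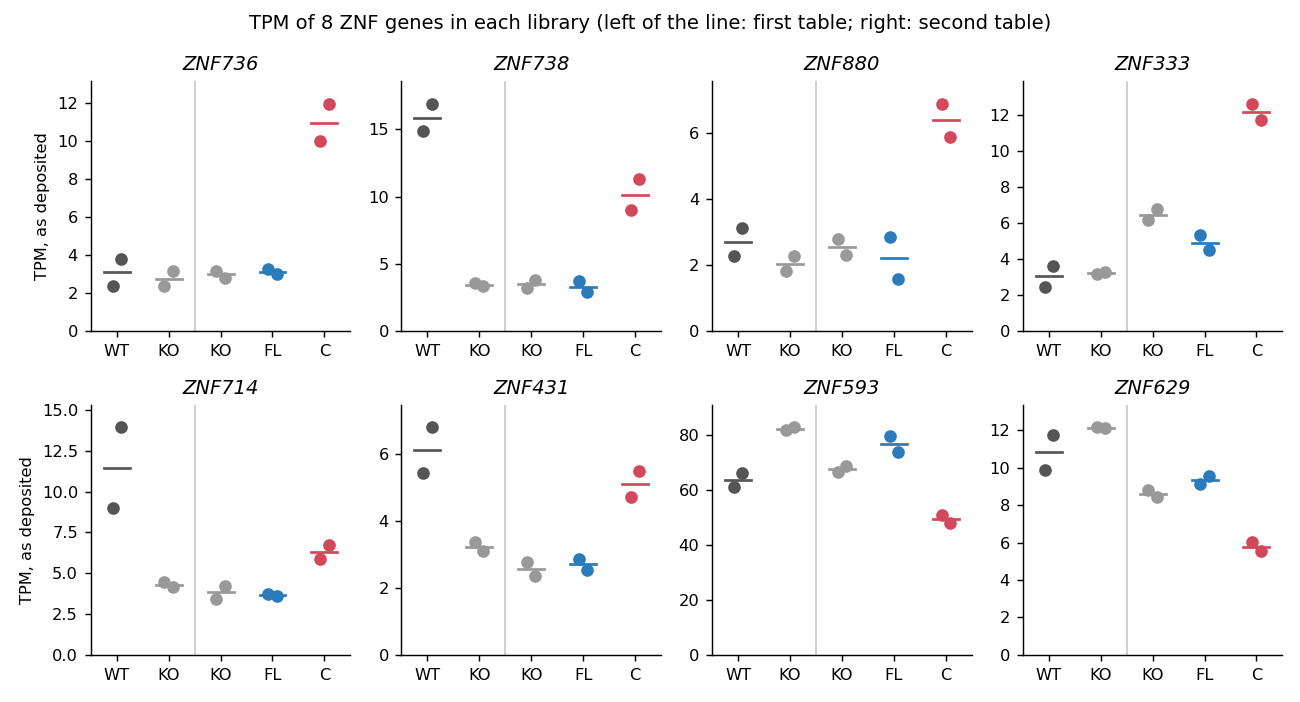
TPM as deposited (vertical axis, from 0) of 8 ZNF genes in each of the 10 libraries, with 1 point per library and a bar at the mean of the 2 libraries of a group. The grey line separates the first table (WT, KO) from the second (KO, SETD2 FL, SETD2 C), which are not on a common scale. ZNF736, ZNF880 and ZNF333 were high in SETD2 C cells within the second table, ZNF738, ZNF714 and ZNF431 were high in WT and with SETD2 C, and ZNF593 and ZNF629 were lowest with SETD2 C within the second table.

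The next increases were past 2-fold in deposited TPM or near it, and under 2-fold on the scaled log2 scale on which calls were made. ZNF37A, a KRAB gene on chromosome 10, was at 9.82 and 10.1 TPM with SETD2 FL and at 19.4 and 23.5 TPM with SETD2 C (0.94, SE 0.108, adjusted p = 0.000682). The KRAB gene ZNF585A rose from 4.03 and 3.98 TPM to 8.93 and 8.62 TPM (0.92, SE 0.15, adjusted p = 0.00274), and its KO libraries were at 3.55 and 2.42 TPM. ZNF395, a gene without KRAB that encodes a hypoxia-induced factor, rose from 10.8 and 12.3 TPM to 23.8 and 24.5 TPM (0.91, SE 0.0728, adjusted p = 0.000155), with 41.5% of its 75-base stretches shared with another gene. ZNF529, again with KRAB, rose from 2.88 and 2.50 TPM to 5.24 and 5.76 TPM (0.80, SE 0.121, adjusted p = 0.00201). In each of these 4 genes the SETD2 C libraries lay above all KO and SETD2 FL libraries.

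The largest decrease in log2 was smaller than the 4 largest increases. ZNF629, which encodes 19 fingers and no KRAB on chromosome 16, was at 8.80 and 8.41 TPM in KO, 9.14 and 9.53 in SETD2 FL cells and 6.04 and 5.53 TPM in SETD2 C cells (-0.77, SE 0.0859, adjusted p = 0.000627). ZNF593, a ribosome assembly factor with 1 finger, was at 66.4 and 68.6, 79.4 and 73.6, and 50.8 and 48.0 TPM in the same order (-0.75, SE 0.0704, adjusted p = 0.000324). Both SETD2 C libraries were the lowest of the 6 in both genes. ZNF704 fell from 6.35 and 7.45 TPM with SETD2 FL to 4.52 and 4.43 TPM (-0.69, SE 0.105, adjusted p = 0.00211). The other 5 of the 8 largest decreases were ZNF30 (-0.61), ZNF628 (-0.61), ZNF268 (-0.56), ZNF775 (-0.56) and ZNF764 (-0.56), of which ZNF30, ZNF268 and ZNF764 carry KRAB. The calls of ZNF30, ZNF628, ZNF775 and ZNF764 were each lost without SETD2 C replicate 2, with adjusted p between 0.0555 and 0.116.

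The counts were then taken apart for genes with and without KRAB. Of the 130 KRAB genes, 40 were higher with SETD2 C and 8 lower at the adjusted p (30.8% and 6.15%), beside 22 and 25 of the 149 without KRAB (14.8% and 16.8%) and 21.4% and 16.8% of all genes tested. The median log2 difference was 0.161 with KRAB and -0.043 without. In deposited TPM, the 130 KRAB genes summed to 825 and 818 in KO, 868 and 853 in SETD2 FL cells and 1092 and 1102 TPM in SETD2 C cells. The 149 others summed to 2390 and 2320, 2327 and 2469, and 2576 and 2608. The SETD2 C libraries were thus the highest in both sums before scaling. Scaling divides them by 1.06 and 1.07, KO by 0.966 and 0.957 and SETD2 FL by 0.956 and 0.994. It thus lowers SETD2 C and raises the others, and the order of the sums need not hold after it. As KRAB genes were lower in level, medians were also taken within a range of levels. At a KO mean of 5 to 20 TPM the medians were 0.148 for 66 KRAB genes, -0.053 for 74 others and 0.024 for all 4628 genes tested in that range. In that range 34.8% of the KRAB genes were higher, beside 17.6% of the others and 21.6% of all genes. At 2 to 5 TPM the medians were 0.164 for 63 KRAB genes, -0.038 for 41 others and 0.137 for 2096 genes, and 25.4%, 14.6% and 26.9% were higher. At this lower level the share of KRAB genes that were higher was thus not above that of all genes. For KRAB genes the median was 0.196 over the 65 on chromosome 19 and 0.145 over the 65 elsewhere. After quantile normalization, 28 KRAB genes were higher and 12 lower, beside 20 and 34 of those without KRAB. No test of the difference between genes with and without KRAB was made.

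**Figure D2:**
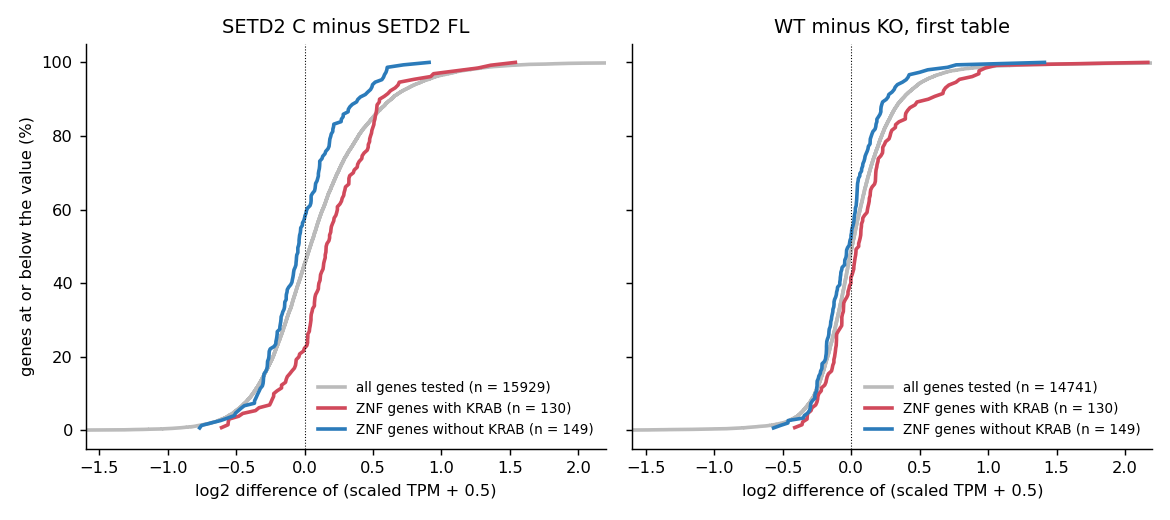
Cumulative share of genes (vertical axis, %) at or below a log2 difference of scaled TPM + 0.5 (horizontal axis) for SETD2 C minus SETD2 FL (left) and WT minus KO in the first table (right), for all genes tested, the 130 ZNF genes with KRAB and the 149 without. On the left the KRAB curve lies to the right of the curve of all genes over most of the range (medians 0.161 and 0.042), and the curve without KRAB lies to the left (median -0.043); on the right the 3 curves lie closer together.

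Base composition, which the selection did not use, was set beside the direction of the difference. The reference transcripts of the 62 higher genes had a median GC content of 41.9% and those of the 33 lower genes 61.7%, beside 44.7% for the 184 not called and 48.7% for all genes tested. The higher genes had longer 3′ untranslated regions (median 2471 bases against 1013) and more fingers (median 11 against 8), and their median coding length was 1719 bases against 1686. KRAB genes were themselves poorer in GC, at a median of 42.4% against 51.9%. Across all genes tested, the median log2 difference ran from 0.094 in the lowest of 4 equal bins of GC content to -0.019 in the highest. With each library adjusted for GC content, a setting chosen after the data were seen, 47 genes were higher and 38 lower (median -0.002), which is 16.8% and 13.6% beside 18.4% and 21.0% of all genes (median -0.007). Among them, 29 KRAB genes were higher and 10 lower (median 0.084), beside 18 and 28 without KRAB (median -0.068). Whether GC content has a part in the difference was not tested further.

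**Figure D3:**
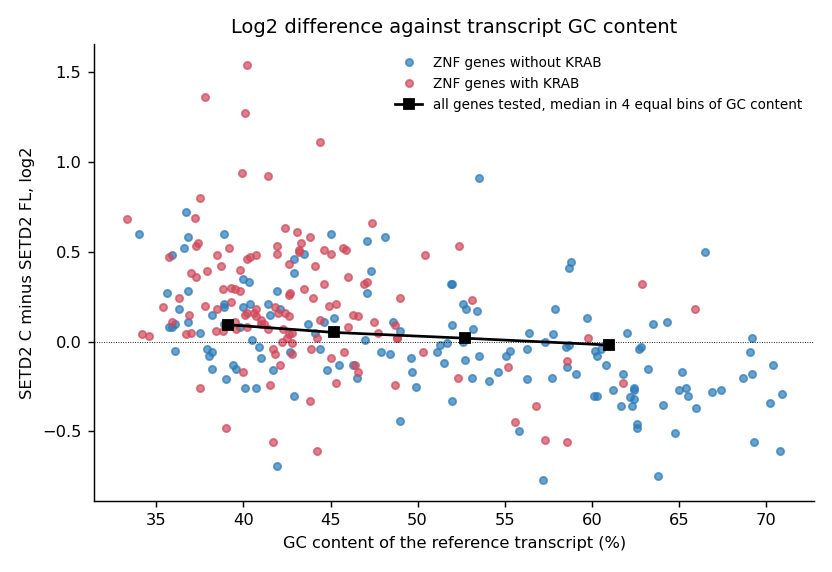
Log2 difference of SETD2 C and SETD2 FL (vertical axis) against the GC content of the reference transcript in % (horizontal axis) for the 279 tested ZNF genes, coloured by KRAB, with the median of all genes tested in each of 4 equal bins of GC content as black squares. The increases above 1 lie below 45% GC, and most genes above 60% GC lie below 0.

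By known role, the ZNF genes without KRAB moved in both directions. These lists were written with earlier results of the data known, so their counts are a description. Of 9 genes that act on RNA or translation, 1 rose and 3 fell with SETD2 C against SETD2 FL (median -0.057). These are 11.1% and 33.3%, beside 21.4% and 16.8% of all genes tested. Most of the 9 were at 20 TPM or more in KO, where 15.5% of all genes were higher and 30.9% lower. The one that rose was ZNF326, a part of the DBIRD complex that links elongation by RNA polymerase II to splicing, at 27.9 and 29.0 TPM in SETD2 FL cells and 42.4 and 47.2 TPM in SETD2 C cells (0.52, SE 0.0704, adjusted p = 0.00133). Beside ZNF593, the 2 that fell were ZNF598, the ubiquitin ligase that marks collided ribosomes (-0.27, SE 0.056, adjusted p = 0.00757), and ZNF622, a factor of the large ribosomal subunit (-0.20, SE 0.0648, adjusted p = 0.0392). ZNF207, ZNF346, ZNF385A, ZNF638 and ZNF830 did not pass, with log2 differences of -0.15 to 0.11. The calls of ZNF598 and ZNF622 were lost in at least 1 fit with 1 library left out (adjusted p up to 0.167), and those of ZNF326 and ZNF593 were not.

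Of 16 sequence-specific regulators without KRAB, 3 rose and 3 fell (median -0.084). These are 18.8% each, beside 21.4% and 16.8% of all genes tested. ZNF143, which activates snRNA and many other promoters, was at 20.4 and 21.4 TPM in SETD2 FL cells and 29.4 and 26.5 TPM in SETD2 C cells (0.28, SE 0.073, adjusted p = 0.0183). Its paralogue ZNF76 (0.41, SE 0.0654, adjusted p = 0.00257) and the oncogene ZNF217 (0.49, SE 0.0993, adjusted p = 0.0069) rose too, while ZNF219 (-0.34), ZNF335 (-0.27) and ZNF703 (-0.17) fell. Of these 6, the calls of ZNF76 and ZNF217 held with each library left out, and the other 4 were lost in at least 1 such fit (adjusted p up to 0.159). Among 9 genes of chromatin complexes and SUMO transfer, ZNF451, a SUMO ligase, rose (0.28, SE 0.0756, adjusted p = 0.0212), as did ZNF518B (0.33, SE 0.098, adjusted p = 0.0309). They are 22.2% of that list, near the share of all genes, and 0 fell by limma (0 at an unadjusted p under 0.05). Both calls were lost in at least 1 fit with 1 library left out (adjusted p 0.0769 to 0.135). Of 11 genes of the KRAB family with known targets, ZNF224 (0.48), ZNF445 (0.33), which guards imprinted loci, and ZNF483 (0.55) rose. In the same list ZNF202 (-0.44) and ZNF268 (-0.56) fell, so 27.3% rose and 18.2% fell. Of these 5 calls, that of ZNF268 held with each library left out, and the other 4 did not (adjusted p up to 0.212). ZNF202, ZNF263 and ZNF496 carry a diverged KRAB box that the signature did not match and were counted without KRAB above.

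The partners of the KRAB box were compared in the same way. Of 34 corepressor and heterochromatin genes, 0 passed at a 2-fold difference, and at the adjusted p alone 3 rose and 10 fell with SETD2 C against SETD2 FL (limma, unadjusted p under 0.05: 3 and 13), with a median of -0.096. These are 8.82% and 29.4% of the list, beside 21.4% and 16.8% of all genes tested. Most of the list was at 20 TPM or more in KO. Of all genes tested at that level, 15.5% were higher and 30.9% lower (median -0.077). The share of the list that was lower thus lay near that of genes of its level. TRIM28, the direct partner, was at 523 and 564 TPM in SETD2 FL cells and 512 and 472 TPM in SETD2 C cells (-0.27, SE 0.0592, adjusted p = 0.00937), and the adjusted p was 0.0624 without SETD2 C replicate 2. SETDB1 was at 39.6 and 40.8, and 42.6 and 41.1 TPM (-0.07, SE 0.0698, adjusted p = 0.456). TASOR, a subunit of the HUSH silencing complex, fell the most, from 40.5 and 43.0 to 31.4 and 32.9 TPM (-0.50, SE 0.0573, adjusted p = 0.000682), followed by MBD3 (-0.47) and UHRF1 (-0.41). CBX5, which encodes HP1 alpha (0.42), HDAC1 (0.34) and CBX1 (0.26) rose. Of the 13 calls, 6 were lost in at least 1 fit with 1 library left out, among them TRIM28 and CBX1. In WT against KO, 0 of the 34 passed at the adjusted p (limma, unadjusted p under 0.05: 3 higher and 5 lower). Of all 14741 genes, 2080 were higher and 1593 lower at that unadjusted p.

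WT was compared with KO in the first table to ask which ZNF genes differed in cells without SETD2. At a 2-fold difference and the adjusted p over 14741 genes, 3 of the 279 were higher in WT (all genes tested: 1.02%) and 0 were lower (all genes tested: 0.339%), the lowest log2 difference being -0.57. At an unadjusted p under 0.05 (limma), 27 of the 279 were lower, beside 1593 of all 14741. At the adjusted p alone, 13 were higher, 4.66% of the 279 beside 3.17% of all genes tested, and 1 was lower, 0.358% beside 1.32%. The median of 0.017 lay near the 0.006 of all genes tested. ZNF genes that were low in KO cells, which the rule left out, are not in this median or these counts. Of the 13, 11 carry KRAB and 10 lie on chromosome 19, among 130 and 91 genes tested. The number higher was 4 without KO replicate 2, 5 without KO replicate 1, 8 without WT replicate 1 and 17 without WT replicate 2. WT replicate 1 had a scaling factor of 0.879, beside 1.04 to 1.06 in the other 3 libraries.

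The 3 genes called in WT against KO all lie on chromosome 19. ZNF738 was at 14.9 and 16.9 TPM in WT and 3.56 and 3.36 TPM in KO (log2 difference 2.17, SE 0.0933, adjusted p = 0.000199). ZNF714 (21082159 to 21125270, plus strand), for which no KRAB signature was found in the reference transcript, was at 9.01 and 13.9 TPM in WT and 4.44 and 4.14 TPM in KO (1.41, SE 0.139, adjusted p = 0.00467). ZNF749 (57435325 to 57447101, plus strand) was at 7.98 and 9.45, and 4.47 and 4.12 TPM (1.06, SE 0.0985, adjusted p = 0.00375). The WT libraries lay above the KO libraries in all 3 genes. ZNF274, which binds the 3′ ends of other ZNF genes and recruits SETDB1 there, was at 8.14 and 9.32 TPM in WT and 5.98 and 5.59 TPM in KO (0.67, SE 0.095, adjusted p = 0.0169), and its call was lost without either KO replicate (adjusted p 0.068 and 0.111). The gene that was lower in WT was ZNF232, at 9.59 and 10.7 TPM against 16.6 and 16.7 TPM (-0.57, SE 0.084, adjusted p = 0.0196), and its call was lost without KO replicate 1 (adjusted p 0.087) or KO replicate 2 (0.135). The next largest decreases, ZNF106 (-0.52, adjusted p = 0.0812) and ZNF148 (-0.46, adjusted p = 0.0886), did not pass.

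ZNF738 and ZNF714 are near neighbours, and the stretch around them was examined after their values were seen. From 20619939 to 22532485 on chromosome 19 lie 18 listed ZNF genes, of which 4 are in the selection and 5 others passed the filter on low TPM. The 4 are ZNF430, ZNF714, ZNF431 and ZNF738, in this order. ZNF431 was at 5.43 and 6.79 TPM in WT and 3.38 and 3.09 in KO of the first table (0.93, adjusted p = 0.00882). In the second it was at 2.76 and 2.35 TPM in KO and 2.87 and 2.53 in SETD2 FL cells. With SETD2 C it was at 4.72 and 5.48 TPM (0.69 against SETD2 FL, adjusted p = 0.00556). The call of ZNF431 in WT was lost without KO replicate 2 (log2 difference 0.89). ZNF714 was at 3.74 and 3.61 TPM with SETD2 FL and at 5.88 and 6.72 TPM with SETD2 C (0.58, SE 0.126, adjusted p = 0.00894), and the adjusted p was 0.0607 without SETD2 C replicate 2. ZNF430 was higher in WT (0.67, adjusted p = 0.0556) and with SETD2 C (0.53, adjusted p = 0.0501) by less than the test requires. Among the neighbours below the threshold, ZNF100 was at 5.74 and 6.78 TPM in WT and 0.64 and 0.81 in KO of the first table. In the second, KO was at 0.61 and 0.52 TPM, SETD2 FL at 0.60 and 0.61 and SETD2 C at 1.18 and 1.60 TPM. The stretch was not uniform, as ZNF85 at its start was at 1.15 and 1.07 TPM in WT and 1.14 and 1.08 TPM in KO. On chromosome 7, the stretch from 64045434 to 65401136 holds ZNF736, called above, and 5 selected neighbours. Of these 5, ZNF680 and ZNF138 were higher with SETD2 C, and none of the 6 genes passed in WT against KO. Over all genes tested, 21.4% were higher with SETD2 C and 3.17% were higher in WT than in KO. The call of ZNF680 was lost in 1 fit with 1 library left out (adjusted p 0.0525) and that of ZNF138 in all 6 (0.0607 to 0.232).

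**Figure D4:**
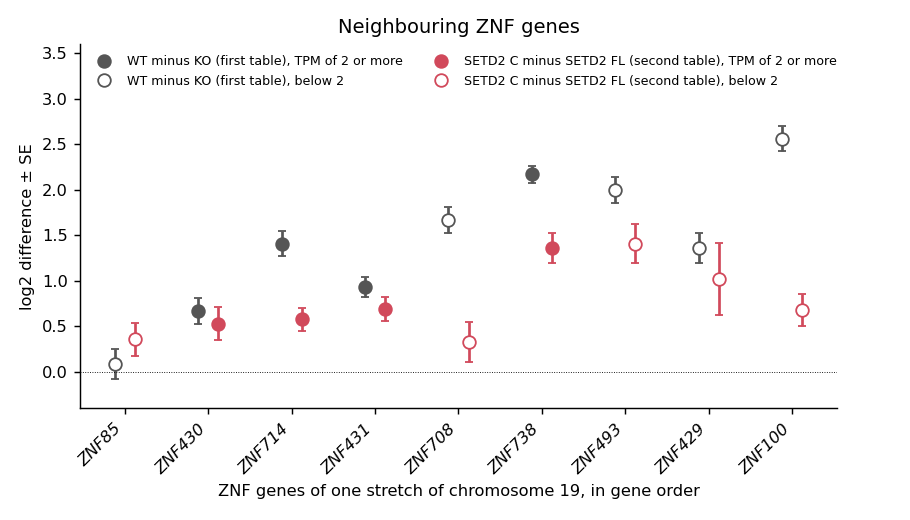
Log2 difference (vertical axis, bars are standard errors) of the 9 tested ZNF genes of one stretch of chromosome 19 in gene order, for WT minus KO (grey) and SETD2 C minus SETD2 FL (red), with filled points for the 4 genes at 2 TPM or more in KO. Genes drawn open, such as ZNF429 and ZNF493, could enter the test through the group in which they were high, so no count over the 9 genes is read from the plot.

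The 2 tested comparisons share no library, so their calls can be set beside each other. Of the 62 genes higher with SETD2 C in the second table, 7 (11.3%) were also higher in WT than in KO, which is 53.8% of the 13 higher in WT. Over all 14530 genes tested in both tables, the shared genes were 5.2% of those higher with SETD2 C and 36.7% of those higher in WT. The 7 genes were ZNF251, ZNF266, ZNF431, ZNF529, ZNF585A, ZNF714 and ZNF738, all on chromosome 19 but for ZNF251. With 1 library left out, 5 of the 7 calls in WT against KO were lost in at least 1 fit (ZNF251, ZNF266, ZNF431, ZNF529 and ZNF585A, adjusted p 0.0519 to 0.154), and 1 of the 7 with SETD2 C (ZNF714). ZNF266 was at 12.2 and 13.2 TPM in WT and 7.24 and 8.42 in KO of the first table. In the second it was at 9.99 and 9.58 in SETD2 FL cells and 16.3 and 14.8 TPM in SETD2 C cells. Across the 279 genes the log2 differences had a Pearson correlation of 0.42 (0.50 over the KRAB genes and 0.20 over the others), beside 0.11 over all genes. Genes are not independent, and neighbours share sequence and base composition. ZNF736 and ZNF333, high with SETD2 C, were not called in WT against KO (0.23, adjusted p = 0.491, and 0.02, adjusted p = 0.942), and ZNF749, high in WT, was not called with SETD2 C (0.12, adjusted p = 0.494).

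**Figure D5:**
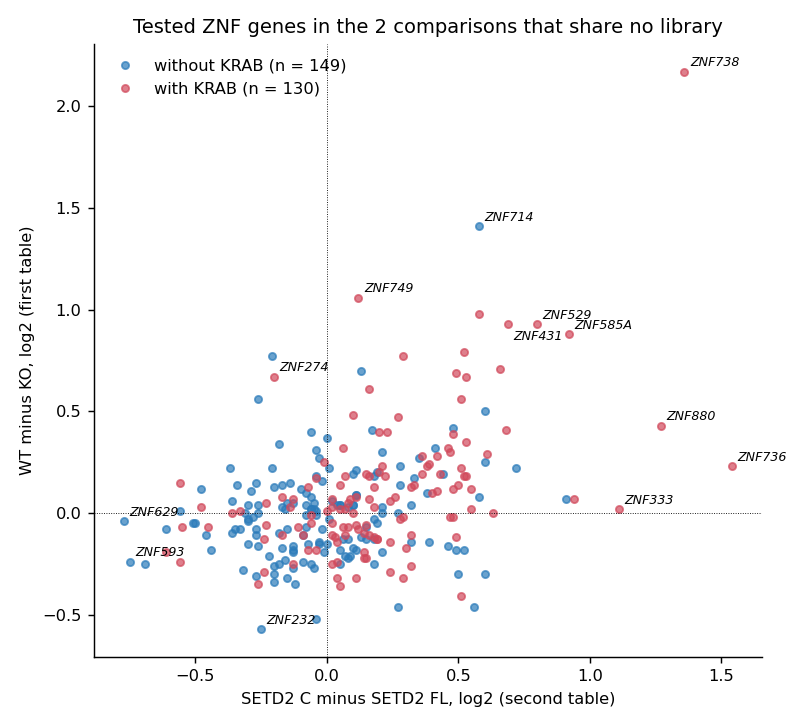
Log2 difference of WT and KO in the first table (vertical axis) against that of SETD2 C and SETD2 FL in the second (horizontal axis), with 1 point for each of the 279 tested ZNF genes, coloured by KRAB. ZNF738 lies at the upper right (1.36 and 2.17), ZNF736, ZNF880 and ZNF333 lie at the right near 0 to 0.43 on the vertical axis, and most genes lie near the origin.

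Against KO in the second table, the values of which chose the genes, sizes are given only as a description. With SETD2 C, 4 genes were higher by 2-fold or more (all genes: 3.84%) and 0 were lower by as much (all genes: 0.352%, lowest of the ZNF genes -0.68). The 4 were ZNF736 (1.58, SE 0.123), ZNF585A (1.3, SE 0.15), ZNF738 (1.27, SE 0.162) and ZNF880 (1.04, SE 0.226). The median log2 difference was 0.112, beside 0.046 over all genes. With SETD2 FL, 0 genes were higher (all genes: 0.276%) or lower (all genes: 0.157%) by 2-fold or more, with log2 differences of -0.49 to 0.70 and a median of 0.029, beside 0.006 over all genes. The gene with the highest value, ZNF268, was at 3.66 and 3.89 TPM in KO, 6.56 and 6.52 in SETD2 FL cells and 4.69 and 4.67 TPM in SETD2 C cells, so both SETD2 C libraries lay between the other groups. ZNF274 was lowest in both KO libraries, with 4.89 and 4.55 TPM in KO, 7.90 and 7.77 in SETD2 FL cells and 8.01 and 6.81 TPM in SETD2 C cells. ZNF738 and ZNF714, by contrast, were at 3.75 and 2.89 TPM and 3.74 and 3.61 TPM with SETD2 FL, within 1 TPM of their KO libraries. These comparisons share the KO libraries and are not independent of each other.

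The 7 selected genes that GENCODE 44 lists as pseudogenes were not tested. ZNF271P was the highest, at 25 and 23.7 TPM in KO, 26.0 and 28.0 in SETD2 FL cells and 27.0 and 28.3 TPM in SETD2 C cells. ZNF204P was at 15.6 and 14.9, 14.7 and 15.5, and 18.6 and 19.6 TPM. ZNF767P lay at 11.1 to 14.9 TPM over all 10 libraries, and ZNF252P, ZNF286B, ZNF815P and ZNF887P lay between 1.85 and 11.1 TPM.

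Beside the selection, related genes gave other counts. Of the 136 tested ZNF genes below the threshold, 41 were higher and 2 lower with SETD2 C at the adjusted p (median 0.336), and 38 were higher and 0 lower in WT than in KO (limma, unadjusted p under 0.05: 65 and 3, median 0.371). These genes could pass the filter through the group in which they were high, so their share is not comparable. Of 34 ZBTB genes at 2 TPM or more, whose zinc fingers follow a BTB domain, 12 were higher and 7 lower with SETD2 C (35.3% and 20.6%, median 0.079). Of 17 ZSCAN and ZKSCAN genes, 4 were higher and 1 lower (23.5% and 5.88%, median 0.022). The shares over all genes tested were 21.4% and 16.8%. No test of these differences was made.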

How the data were processed

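RNA from 10 HEK293T libraries was analysed, and the H3K36me3 ChIP-seq samples were not analysed here. The authors estimated TPM per gene with RSEM 1.3.0 on STAR 2.6.1c alignments and deposited it in 2 tables made separately, which were not compared with each other. TPM keeps no read depth, and the other tools named in the submitters' processing notes are bcl2fastq 2.18 and, listed without a role, Bowtie2 2.3.4.1. Neither table holds the authors' own comparisons.

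Libraries were brought to a common scale by their median TPM ratio, taken over the protein-coding and lncRNA genes that reached 1 TPM throughout. Of these gene types, those reaching 0.5 TPM in 2 or more libraries entered the tests. The test was limma 3.58.1 (R 4.3.3, moderated with a trend) on log2(scaled TPM + 0.5), a scale that understates the change of low genes. The 6 libraries of the second table shared 1 fit. A call needed a 2-fold difference and an adjusted p up to 0.05. Gene types, positions and reading frames came from GENCODE 44 by gene identifier, and all 286 genes matched. KRAB, finger and linker patterns were searched in the translated reading frames, as no RefSeq protein table was used here. Shared sequence was counted over 75-base stretches.

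The genes and lists were chosen with earlier results of these data known. Named genes were the 8 largest increases and 8 largest decreases of SETD2 C against SETD2 FL at the adjusted p with libraries that did not overlap, the 4 highest in KO, the 3 largest increases and 3 largest decreases of WT against KO, the genes of the role lists, those on either side of the threshold and called corepressor genes. ZNF431, ZNF430, ZNF680, ZNF266, ZNF85, ZNF100 and the other genes of the shared calls and of the 2 chromosomal stretches were named after their values were seen.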

Additional observations from a re-analysis of the deposited data

How the results depend on the processing

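Alternatives were pseudocounts of 0.1 and 1, other filters, other scalings, eBayes without trend, all gene types, fits of only the groups compared, each library left out and, added after the data were seen, an adjustment for GC content. With 1 library left in a group, that library is assumed to vary like the other groups. The cause of a change was not tested. Counts printed without the share of all genes are not read as a result about the ZNF genes. For SETD2 C against SETD2 FL, 19 genes were lower at the adjusted p with no filter. Without scaling 7 were called higher, 95 were higher and 17 lower at the adjusted p, and the median was 0.189. The median was -0.014 after quantile normalization and -0.002 with GC adjustment, and the median of KRAB genes minus that of the others was 0.164 and 0.152, beside 0.204. At the adjusted p alone 62 were higher and 33 lower. Leaving out 1 library gave 2 to 5 called higher, 42 to 60 higher and 10 to 31 lower at the adjusted p, a median of 0.052 to 0.072 and a KRAB difference of 0.173 to 0.266. The comparisons with KO in the second table, the values of which chose the genes, are listed as a description. Their calls and counts at the adjusted p come from fits to those same KO libraries, so they cannot serve as a test. They are printed only to show how the output moves between settings, and no conclusion is drawn from them. For SETD2 C against KO, 46 were higher and 14 lower with no filter. Without scaling 8 were called and the median was 0.254. At the adjusted p 111 were then higher and 9 lower (39.8% and 3.23%, beside 34.6% and 7.0% of all genes). The median was 0.017 after quantile normalization (44 lower, KRAB difference 0.166), 0.205 with TPM rescaled without mitochondrially encoded genes and SETD2 (12 lower) and 0.029 with GC adjustment (KRAB difference 0.197). At the adjusted p alone 72 were higher and 24 lower (25.8% and 8.6%, beside 21.1% and 15.1% of all genes). Leaving out 1 library gave 4 to 6 called, 38 to 71 higher, 7 to 20 lower and a KRAB difference of 0.232 to 0.278. For SETD2 FL against KO, the median was 0.029, beside 0.046 without scaling and 0.084 with rescaled TPM. The KRAB difference of SETD2 FL against KO ran from -0.014 to 0.1 with 1 library left out. For WT against KO, 6 were called higher with the pseudocount of 0.1. With no filter 1 was called, 1 was higher and 0 lower. With the filter at 1 TPM throughout 2 were lower. Without scaling the median was -0.108 and 4 were lower (1.43%, beside 2.78% of all genes). After quantile normalization it was -0.026 and 8 were higher (2.87%, beside 2.56% of all genes). With all gene types 8 were higher. With GC adjustment 4 were lower (1.43%, beside 2.14% of all genes) and the KRAB difference was 0.144, beside 0.069. At the adjusted p alone 13 were higher and 1 lower. Leaving out 1 library gave 3 to 5 called, 4 to 17 higher, 0 to 5 lower and a KRAB difference of 0.010 to 0.120.

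WT and KO libraries share the numbers 1 and 2, and same-numbered libraries had a correlation of deviations of 0.147 over 14741 genes, which with 2 pairs does not show that they belong together. With a replicate block 20 were higher and 6 lower at the adjusted p. No share of all genes under this setting is given, so these counts are not read as a result about the ZNF genes. The 34 corepressor genes gave 0 calls at a fold change of 2 under each setting. Of the genes named by rank, role, corepressor list, chromosomal stretch or shared call, 53 were called in SETD2 C against SETD2 FL and 14 in WT against KO. Some of them lie below the selection threshold. The settings refit the same libraries, and under them none of these calls turned direction. Under at least 1 setting 28 of the 53 and 11 of the 14 lost the call, 27 and 8 of them with 1 library left out. In WT against KO, ZNF738 kept it throughout. ZNF100 and ZNF493 kept it wherever they were tested, as the filter at 1 TPM in every library leaves out both. ZNF714 and ZNF749 lost it with no filter (adjusted p 0.0654 and 0.0514). Depth is unknown, so counting error could not be given.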

Other observations

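A pair of ZNF genes below the selection threshold, named after their values were seen, stood higher with SETD2 FL than in KO. ZNF10, whose KRAB box is the best-known transferable repressor domain, was at 0.71 and 0.54 TPM in KO, 1.80 and 2.2 in SETD2 FL cells and 2.87 and 2.42 TPM in SETD2 C cells. In the first table it was at 2.40 and 2.77 TPM in WT and 1.80 and 1.76 TPM in KO. ZNF79 was at 1.94 and 2.02 TPM in KO and 4.92 and 4.69 with SETD2 FL, while 1 of its SETD2 C libraries overlapped KO (2.65 and 2.02). ZNF91, a KRAB gene that represses SVA elements, was at 2.72 and 2.50 TPM in WT and 0.63 and 0.44 in KO of the first table. In the second, KO was at 0.61 and 0.5 TPM, SETD2 FL at 0.46 and 0.45 and SETD2 C at 1.82 and 2.32 TPM.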
